A study of Mus musculus with 9 samples.

Results

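The genes described here are 38 genes of glycolysis and of the response to low oxygen, in the embryonic mouse cortex of controls and of mutants of *Fzd3* and *Celsr3*. They were taken by symbol from a proposed list of 38, and all 38 were found among the 14670 genes of the deposited table. Of these, 23 belong to glycolysis, namely 14 glycolytic enzymes, 2 lactate dehydrogenases, 3 transporters and 4 kinases that set the flux, and 15 belong to the hypoxia response, namely 4 genes of oxygen sensing and 11 further targets. Expression was measured by RNA sequencing of dissected cerebral cortex at E16.5 in 9 libraries, 3 for each genotype. The genotypes are given as +/+ for the controls, *Fzd3* -/- and *Celsr3* -/- for the mutants, although the methods describe control animals that could also be heterozygous littermates. If the smallest step between values of a library is taken as 1 read, the listed genes held 39857305 to 69600589 reads per library. Whether a library came from 1 embryo or from several is not stated. Values are CPM, listed below for libraries 1, 2 and 3 of the controls and *Fzd3* mutants and for libraries 1, 2 and 4 of the *Celsr3* mutants, always in that order. A filter on low values, at a mean of 0.5 CPM, left every one of the 38 genes in the test.

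Glycolysis splits glucose into pyruvate through a chain of cytosolic enzymes, and several of its steps can be run by alternative isozymes encoded by different genes. Lactate dehydrogenase and the pyruvate dehydrogenase kinases decide how much pyruvate is turned into lactate and how much enters mitochondria. When oxygen is scarce, prolyl hydroxylases stop marking hypoxia-inducible factors for destruction, and these factors activate glycolytic genes together with genes of vessel growth and mitophagy.

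The targeted genes were examined first, as a check of the labels. Control samples held *Celsr3* at 196, 243 and 214 CPM, compared with 253, 213 and 255 CPM for *Fzd3* mutants and 122, 139 and 118 CPM for *Celsr3* mutants. All 3 *Celsr3* mutant samples lay below all 3 controls, with a log2 difference of -0.78 (95% confidence interval -0.98 to -0.58, limma adjusted P = 0.00180). This call was lost in 1 of 19 alternative fits, the one with the replicate number as a block (-0.71, adjusted P = 0.0699), and its adjusted P ranged from 0.00136 to 0.0699. *Fzd3* measured 58.0, 67.7 and 46.9 CPM in control samples, 46.5, 39.8 and 59.6 CPM in *Fzd3* mutant samples and 52.1, 61.1 and 54.8 CPM in *Celsr3* mutant samples. The *Fzd3* values of *Fzd3* mutants and controls overlapped, with a log2 difference of -0.24 (adjusted P = 0.2402), which became -0.40 (adjusted P = 0.0457) without *Fzd3* mutant library 3, within a range from 0.0457 to 0.633 over the alternatives. It was -0.11 without *Fzd3* mutant library 2, -0.12 without control library 2 and -0.38 without control library 3. The mutant *Fzd3* allele lacks exon 3, whereas the table has 1 value for the whole gene, so this value neither checks nor contradicts the labels.

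Among the libraries, those of the *Fzd3* mutants stood apart, with Pearson correlations over all genes of 0.994 to 0.997 among themselves and of 0.975 to 0.986 with the other 6, which are correlations across genes and not across replicates. *Fzd3* mutant library 3 also differed from the other *Fzd3* mutant libraries: it was the lowest of its genotype for 18 of 23 glycolysis genes and 12 of 15 hypoxia genes, compared with 37.3% of all genes. Counts are therefore given with and without this library.

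Between *Fzd3* mutants and controls, 18 of the 38 genes (47.4%) passed the threshold of an adjusted P under 0.05 (limma, adjusted over all 14670 genes), beside 29.76% of all genes in the table. *Fzd3* mutants were higher than controls for 12 of the 38, beside 14.99% of all genes, and lower for 6, beside 14.77%. Of the 23 glycolysis genes, 9 passed (39.1%), 5 higher and 4 lower, with a median log2 difference of 0.074 beside -0.0006 over all genes. Of the 15 hypoxia genes, 9 passed (60.0%), 7 higher and 2 lower, with a median log2 difference of 0.17. The median size of the difference, whatever its sign, was 0.16 for glycolysis genes, 0.26 for hypoxia genes and 0.14 over all genes. Libraries of *Fzd3* mutants and controls did not overlap for 18 of the 38 genes (47.4%), beside 43.8% of all genes. Of the 18 genes that passed, only *Hk1* and *P4ha1* overlapped. With 1 library left out, 14 of the 38 genes passed without *Fzd3* mutant library 1 and 15 without library 2, beside 20.2% and 21.7% of all genes in those fits. Without control libraries 1, 2 and 3, the counts were 15, 16 and 17, beside 23.3%, 21.3% and 28.6%. Without *Fzd3* mutant library 3, which is the lowest for most of these genes, 23 passed, beside 29.2% of all genes in that fit, and 17 of them were among the 18. There were then 13 glycolysis genes (10 higher, 3 lower) and 10 hypoxia genes (8 higher, 2 lower), and the median of the glycolysis genes was 0.13. Without *Fzd3* mutant library 1 that median was 0.033, without control library 1 it was 0.042 and without control library 2 it was 0.039. Because the cortex was sequenced as bulk tissue, fewer cells of a type and less RNA per cell cannot be told apart.

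Between *Celsr3* mutants and controls, 0 of the 38 genes passed the threshold in limma, beside 0.3067% of all genes (45 of 14670), a background at which less than 1 gene of a list this size would be called. At an unadjusted P under 0.05 the count was also 0, beside 800 of all 14670 genes, and a fit with read weights gave 0 as well. The unadjusted count was 1 without *Fzd3* mutant library 1 or 3, *Celsr3* mutant library 2 or control library 1. It was also 1 in a fit of only these genotypes. Median log2 differences were -0.016 for glycolysis genes and 0.032 for hypoxia genes, beside -0.0022 over all genes. The median of the glycolysis genes was 0.0071 without *Celsr3* mutant library 4, 0.0038 without control library 3, -0.0074 without *Celsr3* mutant library 2, -0.0033 without control library 1 and -0.0073 without control library 2. That of the hypoxia genes was 0.092 without control library 1 and 0.048 without *Celsr3* mutant library 1. Differences ran from -0.075 for *Eno2* (95% confidence interval -0.23 to 0.084; -0.15 without *Celsr3* mutant library 1 and -0.016 without library 4) to 0.45 for *Slc16a3* (95% confidence interval -0.070 to 0.98), an interval that still holds a difference as large as that of *Pfkp* in *Fzd3* mutants (0.84). Both mutants were compared with the same 3 controls, so these comparisons are not independent.

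**Figure D1:**
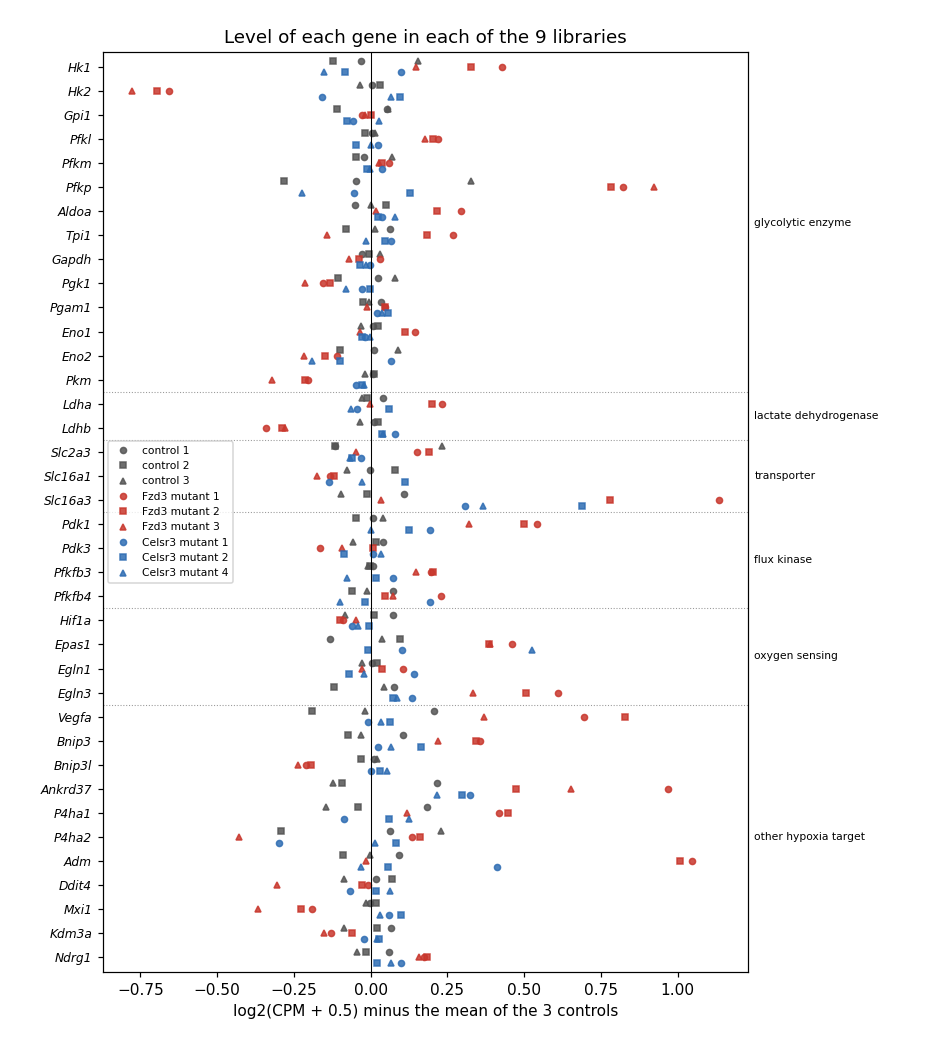
Each point is 1 library, placed on the horizontal axis by its log2(CPM + 0.5) minus the mean of the 3 controls, with 1 line per gene and genes grouped by role (grey controls, red *Fzd3* mutants, blue *Celsr3* mutants). The red points of *Hk2* lie left of all controls (9.01, 8.75 and 8.25 CPM), those of *Pfkp* right of them (113, 110.3 and 121 CPM), and the triangle of *Fzd3* mutant library 3 sits leftmost of the red points in 18 of 23 glycolysis and 12 of 15 hypoxia genes.

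**Figure D2:**
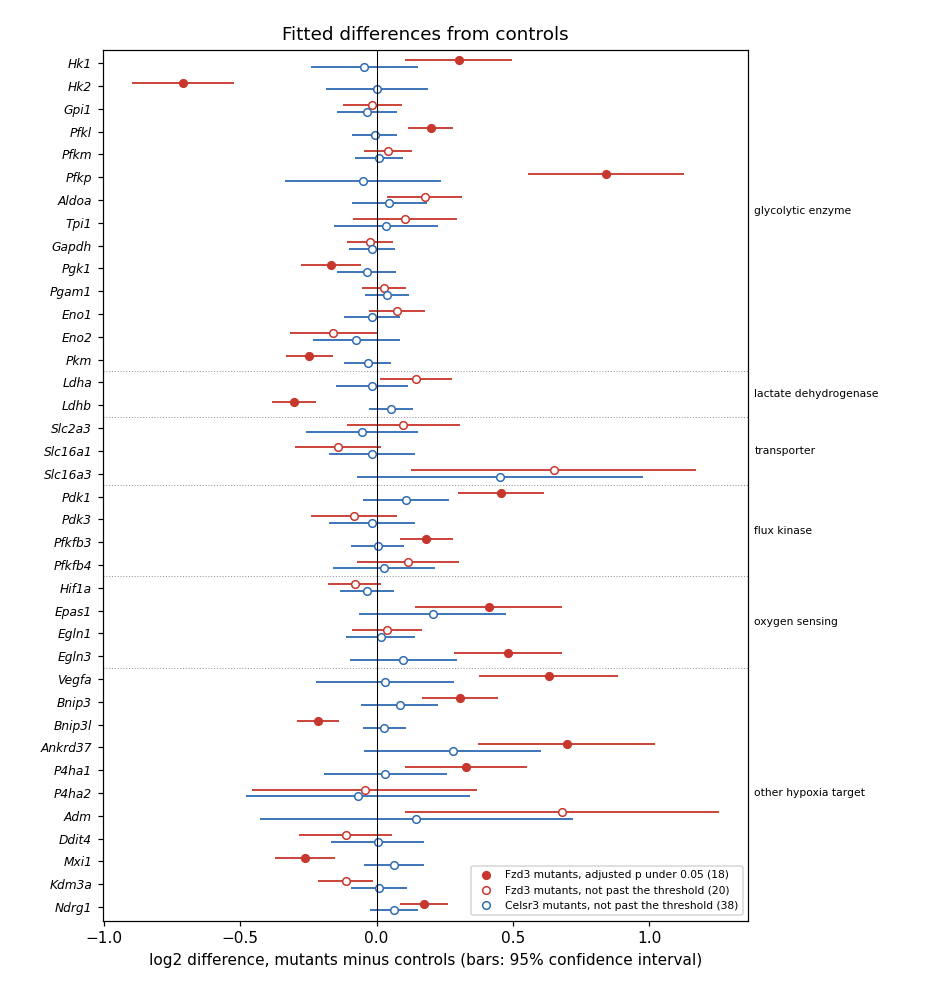
Points give the fitted log2 difference of *Fzd3* mutants (red) and *Celsr3* mutants (blue) from the same 3 controls on the horizontal axis, bars the 95% confidence interval, and filled points the genes with an adjusted P under 0.05. Filled red points mark 12 higher and 6 lower genes, from -0.71 for *Hk2* to 0.84 for *Pfkp*, and 0 of the blue points are filled.

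Promoter sequences were read for the DNA word through which hypoxia-inducible factors act. The core of the hypoxia response element was searched as ACGTG or GCGTG on both strands, so that it also appears as CACGT or CACGC, and the palindrome CACGTG counts as a match on each strand. RefSeq promoter windows of GRCm38.p6, from 250 bases before to 50 bases after a gene's start, were available for 34 of the 38 genes. None was available for *Ndrg1*, *Epas1*, *Slc2a3* and *Bnip3l*. The motif was present in the first listed window of 26 of 34 genes (76.5%), in 16 of 22 glycolysis genes (72.7%) and in 10 of 12 hypoxia genes (83.3%). It was present in 43.8% of all 32851 windows of this length and in 63.5% of the first windows of the 9873 genes of the table that matched, whose mean GC content was 61.3%, beside 63.0% in the 34. Genes that were higher in *Fzd3* mutants held it in 8 of 10 windows, genes that were lower in 3 of 5, and genes that did not pass the threshold in 15 of 19. The stretches printed here, each 90 bases long, 5′ to 3′ on the strand of the gene and with no base in an annotated exon, come from 4 genes that were higher in *Fzd3* mutants (*Pfkp*, *Egln3*, *Bnip3* and *P4ha1*), from 2 that were lower (*Hk2* and *Pgk1*) and from *Ldha*, which did not pass the threshold. Capitals mark the motif.
Pfkp: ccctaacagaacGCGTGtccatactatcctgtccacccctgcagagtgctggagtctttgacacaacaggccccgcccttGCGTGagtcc
Egln3: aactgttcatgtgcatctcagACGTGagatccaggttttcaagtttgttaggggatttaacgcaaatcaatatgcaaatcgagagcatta
Bnip3: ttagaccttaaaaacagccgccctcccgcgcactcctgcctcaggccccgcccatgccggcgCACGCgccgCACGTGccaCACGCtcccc
P4ha1: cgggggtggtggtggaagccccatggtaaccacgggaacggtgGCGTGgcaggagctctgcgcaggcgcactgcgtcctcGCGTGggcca
Hk2: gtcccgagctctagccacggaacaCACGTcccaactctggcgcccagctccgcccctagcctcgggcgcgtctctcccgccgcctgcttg
Pgk1: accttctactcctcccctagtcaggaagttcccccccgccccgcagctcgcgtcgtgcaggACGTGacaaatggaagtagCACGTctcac
Ldha: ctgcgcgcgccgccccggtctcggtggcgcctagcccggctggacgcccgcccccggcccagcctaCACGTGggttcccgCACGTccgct

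The stretches lie at chr13:6648830-6648919 (*Pfkp*, minus strand), chr12:54204035-54204124 (*Egln3*, minus strand), chr7:138909596-138909685 (*Bnip3*, minus strand), chr10:59323090-59323179 (*P4ha1*, plus strand), chr6:82774615-82774704 (*Hk2*, minus strand), chrX:106186889-106186978 (*Pgk1*, plus strand) and chr7:46845690-46845779 (*Ldha*, plus strand). The whole window of *Ldha* held 7 matches, that of *Bnip3* 5, of *Pfkp* 4, of *P4ha1* 3, of *Hk2* and *Pgk1* 2 each and of *Egln3* 1. Windows with the motif thus belonged to genes of either direction and to genes that did not pass, and *Vegfa*, *Hk1*, *Pkm* and *Mxi1*, which did pass, had 0 matches in the first window. Over all listed windows of a gene, the motif was present in 31 of 34 genes (91.2%). *Gpi1*, *Tpi1* and *Eno2*, with 1 window and 0 matches each, were the genes without it. *Vegfa*, *Hk1*, *Pkm* and *Mxi1*, with 2 or 3 windows each, therefore held it in another window. The share of all genes with the motif in any window was not computed. A match describes these letters and does not show a bound site.

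At the entry of glycolysis, hexokinases trap glucose in the cell by phosphorylating it. *Hk2* measured 14.5, 14.8 and 14.1 CPM in control samples, 9.01, 8.75 and 8.25 CPM in *Fzd3* mutant samples and 12.9, 15.5 and 15.2 CPM in *Celsr3* mutant samples. Every *Fzd3* mutant sample was below every control for *Hk2*, the hexokinase known to respond to hypoxia, and the *Celsr3* mutants lay around the controls. *Hk2* (chr6:82725025-82774454 of GRCm38) fell by 40.2% of the control mean in *Fzd3* mutants, a log2 difference of -0.71 (95% confidence interval -0.90 to -0.52, adjusted P = 0.000188). Control samples held *Hk1* at 146, 137 and 167 CPM, compared with 201, 188 and 166 CPM for *Fzd3* mutants and 160.3, 141 and 135 CPM for *Celsr3* mutants. *Hk1* encodes the main hexokinase of brain, and its *Fzd3* mutant values were above the control mean in 3 of 3 samples, although library 3 lay below the highest control. *Hk1* rose by a log2 difference of 0.30 (95% confidence interval 0.11 to 0.50, adjusted P = 0.0256). This call was lost in 5 of 19 alternative fits: without *Fzd3* mutant library 1 (adjusted P = 0.107) or 2 (0.0761), without control library 1 (0.0771) or 2 (0.0969) and without a variance trend (0.0629), with a range from 0.00958 to 0.107. Summed, both hexokinases averaged 164 ± 14.7 CPM in controls, 194 ± 18.4 CPM in *Fzd3* mutants and 159.9 ± 12.02 CPM in *Celsr3* mutants (s.d., n = 3). Per kb of exon, control samples held 17.6 CPM of *Hk1* and 2.43 CPM of *Hk2*.

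Phosphofructokinase commits sugar to glycolysis, and its subunits are encoded by 3 genes, *Pfkl*, *Pfkm* and *Pfkp*. *Pfkp* measured 61.8, 52.5 and 80.3 CPM in control samples, 113, 110.3 and 121 CPM in *Fzd3* mutant samples and 61.5, 69.8 and 54.6 CPM in *Celsr3* mutant samples. *Pfkp*, the platelet-type subunit, was higher in each *Fzd3* mutant sample than in any control, while the *Celsr3* mutants stayed within the control range. It rose by a log2 difference of 0.84 (95% confidence interval 0.56 to 1.13, adjusted P = 0.000881), the largest fitted log2 rise among the 38 genes in this comparison with all libraries. In percent of the control mean, *Adm* (108.8%) and *Slc16a3* (84.3%), which did not pass, rose more than *Pfkp* (77.3%). For *Pfkl*, the control values were 108, 106 and 109 CPM, the *Fzd3* mutant values 125, 124 and 121 CPM and the *Celsr3* mutant values 109, 104 and 107 CPM. All 3 *Fzd3* mutant samples exceeded the controls for the liver-type subunit *Pfkl*, a smaller rise of 0.20 (adjusted P = 0.00271). *Pfkm*, the muscle-type subunit, was at 165 ± 7.15 CPM in controls and 169.7 ± 1.86 CPM in *Fzd3* mutants (s.d., n = 3), a log2 difference of 0.042 (adjusted P = 0.470) that did not pass and was 0.018 without control library 2 and 0.077 without control library 3. On the scale of CPM per kb of exon, *Pfkm* was the most abundant of these in controls at 49.4, followed by *Pfkl* at 16.1 and *Pfkp* at 4.84, and *Pfkp* reached 8.58 in *Fzd3* mutants. Exons of *Pfkp* overlap those of *Pitrm1* on the opposite strand by 748 bases, and whether reads were assigned by strand is not stated. Control samples held *Pitrm1* at 74.9, 76.0 and 75.8 CPM, compared with 74.4, 71.5 and 65.7 CPM for *Fzd3* mutants and 70.2, 70.8 and 72.6 CPM for *Celsr3* mutants, and its difference in *Fzd3* mutants was -0.10 (adjusted P = 0.1496; -0.050 without *Fzd3* mutant library 3).

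The lower part of glycolysis yields ATP and pyruvate. Control samples held *Pkm* at 812, 814 and 797 CPM, compared with 701, 696 and 646 CPM for *Fzd3* mutants and 781, 791 and 795 CPM for *Celsr3* mutants. *Pkm*, the pyruvate kinase gene of brain, was lower in 3 of 3 *Fzd3* mutant samples than in any control and fell by 0.25 on the log2 scale (95% confidence interval -0.33 to -0.16, adjusted P = 0.00112). For *Pgk1*, the control values were 283, 259 and 295 CPM, the *Fzd3* mutant values 249.7, 254 and 240.1 CPM and the *Celsr3* mutant values 273, 278 and 263 CPM. *Pgk1* encodes phosphoglycerate kinase, and its *Fzd3* mutant values lay just below the lowest control, with a log2 difference of -0.17 (adjusted P = 0.0262). The *Pgk1* call was lost in 6 of 19 alternative fits, without *Fzd3* mutant library 1 (adjusted P = 0.0638) or 3 (0.0743), without control library 1 (0.0805) or 3 (0.0825), without a variance trend (0.0676) and with the replicate block (0.0658), over a range from 0.00658 to 0.0825. Fructose-bisphosphate aldolase *Aldoa* did not pass, at 128 ± 4.62 CPM in controls and 145 ± 14.004 CPM in *Fzd3* mutants (s.d., n = 3; log2 difference 0.18, adjusted P = 0.0547), and passed without *Fzd3* mutant library 3 (0.25, adjusted P = 0.00321) and with libraries rescaled to an equal total (0.0410), within a range from 0.00321 to 0.208. Leaving out the same library also brought triose phosphate isomerase *Tpi1* past the threshold, from 0.10 (adjusted P = 0.401) to 0.23 (adjusted P = 0.0105, range 0.0105 to 0.888), whereas the difference was 0.021 without library 1, 0.064 without library 2 and 0.064 without control library 2. It did so too for the enolase *Eno1*, from 0.074 (adjusted P = 0.258) to 0.13 (adjusted P = 0.0314, range 0.0314 to 0.615), with 0.039 without library 1. The remaining enzymes did not pass (adjusted P from 0.122 to 0.846). With 1 library left out, the log2 difference of the glucose phosphate isomerase *Gpi1* (-0.015) ran from -0.070 (control library 2) to 0.012 (control library 3). That of *Gapdh* (-0.025) ran from -0.053 (*Fzd3* mutant library 1) to -0.0024 (library 3), and that of the phosphoglycerate mutase *Pgam1* (0.026) from 0.013 (control library 2) to 0.046 (*Fzd3* mutant library 3). The neuronal enolase *Eno2* differed by -0.16. *Gapdh*, often used as a reference gene, ran from 544 to 584 CPM over the 9 libraries. The processed copy *Pgam1-ps2* was listed at 91.1 to 97.9 CPM and may share reads with *Pgam1*, so both values are uncertain.

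Per kb of exon, the most abundant glycolysis genes of the control cortex were *Pkm* at 161 CPM, *Gapdh* at 138, *Ldhb* at 130.0 and *Pgk1* at 124, followed by *Pgam1* at 85.7 and *Ldha* at 73.6, and *Slc16a3* was the least abundant at 0.2999. *Aldoa* had no single match in the annotation and is left out of this order. Exon length is the union of all annotated exons, such as 1570 bases for *Ldhb* and 5001 for *Pkm*, and not the length of the transcripts expressed. This order, like the other values per kb of exon, therefore depends on the annotation. The summed level of the 14 enzymes was 3135 ± 63.8 CPM in controls, 3109 ± 133 CPM in *Fzd3* mutants and 3097 ± 17.8 CPM in *Celsr3* mutants (s.d., n = 3), differences smaller than the s.d. of the controls.

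Lactate dehydrogenase interconverts pyruvate and lactate with subunits from *Ldha*, which favours lactate, and *Ldhb*, which favours pyruvate. *Ldhb* measured 206, 208 and 199 CPM in control samples, 161, 167 and 168 CPM in *Fzd3* mutant samples and 216, 209 and 210.1 CPM in *Celsr3* mutant samples. The 3 *Fzd3* mutant samples were the lowest of the 9 for *Ldhb*, clear of both other genotypes. *Ldhb* fell by 0.30 on the log2 scale (95% confidence interval -0.38 to -0.22, adjusted P = 0.000197). Control samples held *Ldha* at 251, 241 and 239 CPM, compared with 287, 279.6 and 243 CPM for *Fzd3* mutants and 236, 254 and 233 CPM for *Celsr3* mutants. *Fzd3* mutant libraries 1 and 2 were above all controls for *Ldha* and library 3 was among them, and the difference of 0.14 did not pass (adjusted P = 0.0969), whereas it passed without library 3 (0.22, adjusted P = 0.00768, range 0.00768 to 0.311). Transporters move glucose and lactate across membranes. For *Slc16a3*, the control values were 1.75, 1.58 and 1.45 CPM, the *Fzd3* mutant values 4.09, 3.09 and 1.64 CPM and the *Celsr3* mutant values 2.09, 2.87 and 2.19 CPM. *Slc16a3*, which exports lactate, was scattered in *Fzd3* mutants, with library 1 highest and library 3 close to the controls, and its difference of 0.65 (adjusted P = 0.0611) was 0.41 without library 1 and passed without library 3 (0.96, adjusted P = 0.00283, range 0.00283 to 0.230). The lactate transporter *Slc16a1* differed by -0.14 (adjusted P = 0.160) and the neuronal glucose transporter *Slc2a3* by 0.097 (adjusted P = 0.472; 0.039 without control library 2 and 0.21 without control library 3).

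Kinases that set the flux act on pyruvate dehydrogenase (*Pdk1* and *Pdk3*, which inhibit it) or make and remove the allosteric activator of phosphofructokinase (*Pfkfb3* and *Pfkfb4*). For *Pdk1*, the control values were 28.4, 27.3 and 29.0 CPM, the *Fzd3* mutant values 41.3, 40.1 and 35.4 CPM and the *Celsr3* mutant values 32.3, 30.8 and 28.3 CPM. *Pdk1* was higher in every *Fzd3* mutant than in any other sample and rose by 0.45 on the log2 scale (95% confidence interval 0.30 to 0.61, adjusted P = 0.000970). *Pfkfb3* measured 117, 116 and 116 CPM in control samples, 133, 134 and 129 CPM in *Fzd3* mutant samples and 122, 118 and 110.1 CPM in *Celsr3* mutant samples. For *Pfkfb3* the control values were nearly equal and all 3 *Fzd3* mutants exceeded them, a rise of 0.18 (adjusted P = 0.00960). *Pdk3* was at 17.0 ± 0.624 CPM in controls and 16.0 ± 0.9902 CPM in *Fzd3* mutants (s.d., n = 3), and *Pfkfb4* at 21.3 ± 1.02 and 23.2 ± 1.66 CPM, and neither passed (adjusted P = 0.418 and 0.333).

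Where several of the 38 genes serve a similar step, the share of their summed CPM held by 1 gene shows how that sum was made up. The sums hold genes of the 38 only, so a share is not that of a whole family. *Slc16a7* and *Pdk4*, which also rose in *Fzd3* mutants, and *Pdk2* are left out, and shares that include them were not computed. Transcript lengths enter these shares but are the same in every library, so only their change between genotypes is compared. The share of *Hk2* in the summed CPM of *Hk1* and *Hk2* was 9.04, 9.74 and 7.82% for control samples, 4.28, 4.46 and 4.74% for *Fzd3* mutants and 7.46, 9.89 and 10.1% for *Celsr3* mutants. All 3 *Fzd3* mutants lay below all controls, with a mean of 4.49 ± 0.231% beside 8.87 ± 0.973% (s.d., n = 3). The share of *Pfkp* in the phosphofructokinase sum was 18.6, 16.5 and 22.2% for control samples, 27.6, 27.4 and 29.6% for *Fzd3* mutants and 18.1, 20.7 and 16.7% for *Celsr3* mutants. *Fzd3* mutants were the highest, at 28.2 ± 1.201% beside 19.1 ± 2.88%. The share of *Ldhb* in the lactate dehydrogenase sum was 45.1, 46.2 and 45.4% for control samples, 36.0, 37.4 and 40.9% for *Fzd3* mutants and 47.7, 45.2 and 47.4% for *Celsr3* mutants. The *Fzd3* mutant mean was 38.1 ± 2.53%, below the 45.6 ± 0.575% of controls. In *Fzd3* mutants *Pdk3* held 29.2 ± 2.17% of its sum with *Pdk1*, beside 37.5 ± 1.42% in controls. *Eno2* held 11.5 ± 0.303% of its sum with *Eno1*, beside 13.3 ± 0.989%, and *Slc16a3* 10.7 ± 3.97% of its sum with *Slc16a1*, beside 5.65 ± 0.476%. For each of these 6 shares *Fzd3* mutants did not overlap controls, beside 43.8% of all genes that did not overlap by their own CPM. The exact two-sided permutation test gave P = 0.1 for each, the smallest that 3 libraries against 3 allow, so the isozyme shares cannot pass a threshold of 0.05. Without *Fzd3* mutant library 1 the difference in the share of *Slc16a3* went from 5.07 to 3.22 percentage points. In *Celsr3* mutants the exact permutation P was 0.1 for *Slc16a3*, which did not overlap controls either, and between 0.2 and 0.8 for the other 5 shares, in 12 tests overall.

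**Figure D3:**
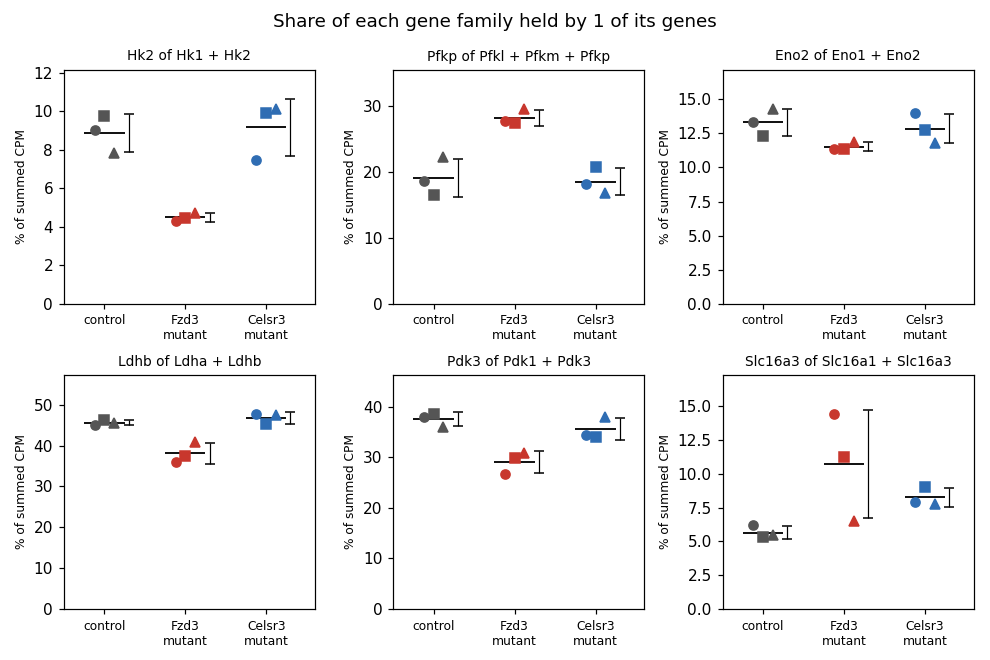
Each panel gives the percentage held by 1 gene of the summed CPM of the genes named above it, which need not be a whole family (vertical axis from 0). Points stand for libraries, a line for the mean and a bar for the s.d. of 3 libraries per genotype. In *Fzd3* mutants the share of *Hk2* lies at 4.49 ± 0.231% beside 8.87 ± 0.973% in controls, and the share of *Pfkp* at 28.2 ± 1.201% beside 19.1 ± 2.88%.

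Oxygen sensing rests on hypoxia-inducible factors and the prolyl hydroxylases that mark them. *Egln3* measured 11.7, 10.1 and 11.4 CPM in control samples, 17.1, 15.9 and 14.1 CPM in *Fzd3* mutant samples and 12.2, 11.6 and 11.8 CPM in *Celsr3* mutant samples. *Egln3*, a prolyl hydroxylase gene that is itself a target of the factors, was higher in 3 of 3 *Fzd3* mutant samples than in any control and rose by 0.48 on the log2 scale (95% confidence interval 0.29 to 0.68, adjusted P = 0.00251). Control samples held *Epas1* at 12.6, 14.8 and 14.2 CPM, compared with 19.2, 18.2 and 18.2 CPM for *Fzd3* mutants and 14.8, 13.7 and 20.1 CPM for *Celsr3* mutants. *Epas1* encodes a hypoxia-inducible factor abundant in endothelium, and its *Fzd3* mutant values were above the controls, while *Celsr3* mutant library 4 was higher than any of them. The log2 difference of *Epas1* in *Fzd3* mutants was 0.41 (adjusted P = 0.0267), a call lost without *Fzd3* mutant library 1 (adjusted P = 0.0860), without library 2 (0.0618) and without control library 1 (0.0967), with a range from 0.00407 to 0.0967. For *Hif1a*, the control values were 209.8, 201 and 188 CPM, the *Fzd3* mutant values 187, 186 and 193 CPM and the *Celsr3* mutant values 191, 199 and 194 CPM. *Hif1a*, the broadly expressed factor, overlapped between genotypes and did not pass (-0.080, adjusted P = 0.201; -0.043 without control library 1 and -0.12 without control library 3), and the hydroxylase gene *Egln1* differed by 0.038 (adjusted P = 0.657; 0.0051 without *Fzd3* mutant library 1 and 0.071 without library 3). The factors are controlled mainly through their protein, which was not measured. Control samples held 33.9 CPM per kb of exon of *Hif1a* and 2.48 of *Epas1*.

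Further targets of the hypoxia response numbered 11, of which 5 rose and 2 fell in *Fzd3* mutants, beside 14.99% and 14.77% of all genes. For *Vegfa*, the control values were 48.4, 36.7 and 41.4 CPM, the *Fzd3* mutant values 68.1, 74.8 and 54.2 CPM and the *Celsr3* mutant values 41.6, 43.8 and 42.9 CPM. *Vegfa*, the main growth factor for vessels, was above all controls in 3 of 3 *Fzd3* mutants, with library 2 highest, and within the control range in *Celsr3* mutants. It rose to 1.55 times the control level, a log2 difference of 0.63 (95% confidence interval 0.38 to 0.88, adjusted P = 0.00227). *Ankrd37* measured 3.37, 2.63 and 2.56 CPM in control samples, 6.02, 4.12 and 4.73 CPM in *Fzd3* mutant samples and 3.67, 3.59 and 3.37 CPM in *Celsr3* mutant samples. *Ankrd37*, an ankyrin-repeat gene known as a hypoxia target, was low in all samples and highest in the 3 *Fzd3* mutants, with a rise of 0.70 (95% confidence interval 0.37 to 1.02, adjusted P = 0.00499). Its exons overlap those of *Lrp2bp* on the opposite strand by 349 bases, and *Lrp2bp* rose as well, from 0.661 ± 0.0893 to 1.35 ± 0.234 CPM (s.d., n = 3; 0.67, adjusted P = 0.0204), so that without strand information their reads cannot be told apart. The *Lrp2bp* call was lost without *Fzd3* mutant library 3 (adjusted P = 0.0646) and without control library 1 (0.0682), over a range from 0.0144 to 0.0682. Control samples held *P4ha1* at 48.1, 41.1 and 38.2 CPM, compared with 56.6, 57.9 and 45.9 CPM for *Fzd3* mutants and 39.7, 44.0 and 46.1 CPM for *Celsr3* mutants. *P4ha1* encodes a subunit of collagen prolyl hydroxylase; *Fzd3* mutant library 3 lay below control library 1, all 3 mutants were above the control mean, and the rise was 0.33 (adjusted P = 0.0326). That call was lost in 5 of 19 alternative fits, without *Fzd3* mutant library 1 (adjusted P = 0.116) or 2 (0.121), without control library 2 (0.0914) or 3 (0.1003) and without a variance trend (0.0672), with a range from 0.00681 to 0.121. For *Ndrg1*, the control values were 158, 149.996 and 147 CPM, the *Fzd3* mutant values 171, 172 and 169 CPM and the *Celsr3* mutant values 162, 154 and 159 CPM. The stress-responsive gene *Ndrg1* was higher in all 3 *Fzd3* mutants than in any control, a rise of 0.17 (adjusted P = 0.00832).

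Exons of 12 of the 38 genes overlap another annotated gene. Among those that passed, these are, besides *Pfkp*, *Ankrd37* and *Mxi1*, the genes *Pkm* (767 bases with *Gm49759*, same strand), *Bnip3* (504 with *Gm45507*), *Ndrg1* (419 with *Gm17035* and 137 with *Gm2895*) and *Hk1* (157 with *Hk1os*), all but the first on the opposite strand.

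The mitophagy receptors *Bnip3* and *Bnip3l*, which tag mitochondria for removal, moved in opposite directions. *Bnip3* measured 43.6, 38.4 and 39.6 CPM in control samples, 51.9, 51.5 and 47.2 CPM in *Fzd3* mutant samples and 41.1, 45.4 and 42.4 CPM in *Celsr3* mutant samples. *Bnip3* was higher in 3 of 3 *Fzd3* mutants than in any other sample and rose by 0.31 (95% confidence interval 0.17 to 0.45, adjusted P = 0.00471). Control samples held *Bnip3l* at 183, 178 and 185 CPM, compared with 157, 159 and 154 CPM for *Fzd3* mutants and 182, 186 and 189 CPM for *Celsr3* mutants. *Bnip3l* was lower in 3 of 3 *Fzd3* mutants and fell by 0.21 on the log2 scale (95% confidence interval -0.29 to -0.14, adjusted P = 0.00130), and per kb of exon it was the most abundant of the 11 targets in control samples, at 47.2 CPM. For *Mxi1*, the control values were 75.9, 77.1 and 75.3 CPM, the *Fzd3* mutant values 66.6, 65.0 and 59.0 CPM and the *Celsr3* mutant values 79.4, 81.6 and 77.8 CPM. *Mxi1*, an antagonist of MYC, was lower in every *Fzd3* mutant than in any control (-0.26, adjusted P = 0.00305), and the overlapping *Gm10197* on the opposite strand (194 shared exon bases) differed by -0.27 (adjusted P = 0.0571, range 0.0279 to 0.159). *Adm* measured 0.944, 0.772 and 0.853 CPM in control samples, 2.30, 2.22 and 0.840 CPM in *Fzd3* mutant samples and 1.30, 0.907 and 0.826 CPM in *Celsr3* mutant samples. The vasodilator gene *Adm* was high in *Fzd3* mutant libraries 1 and 2 and at the control level in library 3, and its difference of 0.68 (95% confidence interval 0.11 to 1.25, adjusted P = 0.0717) passed without library 3 (1.03, adjusted P = 0.00251, range 0.00251 to 0.244). The histone demethylase *Kdm3a* differed by -0.11 (adjusted P = 0.0868) and passed without control library 3 (-0.16, adjusted P = 0.0237, range 0.0237 to 0.260). *Ddit4*, an inhibitor of mTOR signalling, and *P4ha2*, another collagen prolyl hydroxylase subunit, did not pass (-0.11 and -0.044, adjusted P = 0.298 and 0.883). Without *Fzd3* mutant library 3 *Ddit4* differed by -0.018 and *P4ha2* by 0.15, and without control library 2 *P4ha2* differed by -0.19. No called gene of the 38 turned its sign in any of the 19 alternative fits, the other scalings of the libraries included, and 14 of the 18 passed in each of them that tested the gene.

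Between the mutants themselves, which were compared directly in the same fit, 14 of the 38 genes (36.8%) differed, beside 29.63% of all genes. *Fzd3* mutants were higher for 9, beside 15.32% of all genes, and lower for 5, beside 14.31%. Glycolysis genes numbered 8 of 23 (5 higher, 3 lower; median log2 difference 0.071) and hypoxia genes 6 of 15 (4 higher, 2 lower; median 0.11), beside a median of -0.0047 over all genes. Without *Fzd3* mutant library 3, 12 glycolysis and 7 hypoxia genes passed, beside 29.1% of all genes in that fit, and the medians were 0.11 and 0.215. The glycolysis median was 0.025 without *Fzd3* mutant library 1, 0.036 without library 2 and 0.046 without *Celsr3* mutant library 4. This comparison uses the same *Fzd3* mutant libraries as the comparison with controls, and all 14 also passed there. The largest differences were those of *Pfkp* (0.89, adjusted P = 0.000715), *Hk2* (-0.71, adjusted P = 0.000238) and *Vegfa* (0.60, adjusted P = 0.00315). *Pdk1* (0.35), *Egln3* (0.38) and *Pfkl* (0.21) were higher and *Ldhb* (-0.35), *Mxi1* (-0.33), *Bnip3l* (-0.24) and *Pkm* (-0.21) lower, with adjusted P from 9.43e-05 to 0.00830. With the replicate block the calls of *Pkm* (adjusted P = 0.0530, range 0.00194 to 0.0530) and *Pfkfb3* (from 0.0106 to 0.0985, range 0.00743 to 0.0985) were lost.

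In this comparison *Hk1*, *Bnip3* and *P4ha1* lost their calls when 1 of several libraries was left out, with differences of similar size. *Hk1* (0.35, adjusted P = 0.0135) did not pass without *Fzd3* mutant library 1 (0.28, adjusted P = 0.0631), without *Celsr3* mutant library 4 (0.29, 0.0548) or with the block (0.29, 0.0928), within 0.00592 to 0.0928. *Bnip3* (0.22, adjusted P = 0.0233) did not pass without *Fzd3* mutant library 1 (0.20, adjusted P = 0.0863) or 2 (0.20, 0.0804), without *Celsr3* mutant library 1 (0.19, 0.0743) or 4 (0.21, 0.0690) or with the block (0.24, 0.0869), within 0.0152 to 0.0869. *P4ha1* (0.30, adjusted P = 0.0487) lost its call in 8 of 19 fits, among them those without *Fzd3* mutant library 1 (0.25, adjusted P = 0.158) or 2 (0.24, 0.167), without *Celsr3* mutant library 1 (0.24, 0.149), 2 (0.31, 0.0920) or 4 (0.34, 0.0577) and without control library 2 (0.30, 0.0570), within 0.00992 to 0.167. Called against controls but not against *Celsr3* mutants were *Pgk1* (-0.13, adjusted P = 0.0691), *Epas1* (0.21, adjusted P = 0.234), *Ankrd37* (0.42, adjusted P = 0.0529) and *Ndrg1* (0.11, adjusted P = 0.0593). *Epas1* was at 0.10 without *Celsr3* mutant library 2 and passed without library 4 (0.37, adjusted P = 0.0179, range 0.0179 to 0.614), and *Pgk1* without control library 2 (adjusted P = 0.0305) or 3 (0.0492) or in a fit of only these genotypes (0.0349, range 0.0305 to 0.190). *Ankrd37* passed in 6 of 18 alternative fits, without *Fzd3* mutant library 2 (adjusted P = 0.0355), without control library 1 (0.0487), with a pseudocount of 2 (0.0453), with rescaled libraries (0.0493), without a variance trend (0.0497) and with read weights (0.0449), over a range from 0.0355 to 0.202, and *Ndrg1* passed with rescaled libraries (0.0467). *Kdm3a* (-0.12, adjusted P = 0.0663) passed without control library 3 (adjusted P = 0.0379) and in a fit of only these genotypes (0.0462, range 0.0379 to 0.331). Without *Fzd3* mutant library 3, *Aldoa* (adjusted P = 0.00925, range 0.00925 to 0.459), *Tpi1* (0.0213, range 0.0213 to 0.938), *Eno1* (0.0188, range 0.0188 to 0.474), *Ldha* (0.00542, range 0.00542 to 0.237) and *Adm* (0.00564, range 0.00564 to 0.420) also passed.

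Other genes of glycolysis and pyruvate use gave a list of 40, of which 31 were in the table. Between *Fzd3* mutants and controls 10 of the 31 passed (32.3%; 7 higher, 3 lower), close to the 29.76% of all genes, with a median log2 difference of 0.077. *Mpc2* measured 31.6, 31.2 and 31.8 CPM in control samples, 18.3, 18.0 and 17.7 CPM in *Fzd3* mutant samples and 34.5, 31.0 and 33.8 CPM in *Celsr3* mutant samples. *Mpc2*, a subunit of the carrier that brings pyruvate into mitochondria, was far below both other genotypes in all 3 *Fzd3* mutants and fell by 0.79 on the log2 scale (95% confidence interval -0.92 to -0.67, adjusted P = 5.94e-06). Its partner subunit *Mpc1* went the other way, at 58.0, 59.5 and 57.7 CPM for controls, 65.1, 69.8 and 65.3 CPM for *Fzd3* mutants and 57.3, 59.9 and 55.9 CPM for *Celsr3* mutants. All 3 *Fzd3* mutants were the highest for *Mpc1*, which rose by 0.19 (adjusted P = 0.0113; 0.16 and 0.0509 without *Fzd3* mutant library 2, range 0.00802 to 0.0509) and differed by 0.21 from *Celsr3* mutants (adjusted P = 0.00726; 0.0577 with the block, range 0.00668 to 0.0577). Control samples held *Slc16a7* at 12.5, 13.4 and 12.6 CPM, compared with 23.9, 21.9 and 21.7 CPM for *Fzd3* mutants and 15.1, 15.8 and 12.2 CPM for *Celsr3* mutants. *Slc16a7*, a lactate and pyruvate transporter of neurons, was highest in the 3 *Fzd3* mutants and rose by 0.79 (adjusted P = 0.000200). For *Gpd2*, the control values were 55.3, 55.5 and 54.2 CPM, the *Fzd3* mutant values 69.4, 71.9 and 71.0 CPM and the *Celsr3* mutant values 57.7, 56.0 and 51.8 CPM. The mitochondrial glycerol phosphate dehydrogenase *Gpd2* was higher in 3 of 3 *Fzd3* mutants, by 0.36 (adjusted P = 0.000373). *Pdk4* measured 0.732, 0.575 and 0.928 CPM in control samples, 2.14, 2.18 and 1.85 CPM in *Fzd3* mutant samples and 0.952, 0.762 and 0.683 CPM in *Celsr3* mutant samples. *Pdk4*, a further pyruvate dehydrogenase kinase, was higher in 3 of 3 *Fzd3* mutants, by 1.05 (adjusted P = 0.000921).

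Control samples held *Aldoc* at 96.0, 126 and 107 CPM, compared with 81.8, 80.6 and 85.0 CPM for *Fzd3* mutants and 95.2, 105 and 110.5 CPM for *Celsr3* mutants. *Aldoc*, the brain aldolase gene, was low in the 3 *Fzd3* mutants and fell by 0.40 on the log2 scale (adjusted P = 0.00540). Against *Celsr3* mutants *Aldoc* differed by -0.33 (adjusted P = 0.0160), a call lost without *Fzd3* mutant library 1 (adjusted P = 0.0527) or 2 (0.0549), without *Celsr3* mutant library 2 (0.0504) or 4 (0.0630) and with the block (0.0677), within 0.00358 to 0.0677. In the direct comparison of the mutants 11 of the 31 passed (35.5%; 8 higher, 3 lower in *Fzd3* mutants), beside 29.63% of all genes. *Pdk2*, also a pyruvate dehydrogenase kinase, differed by -0.38 (adjusted P = 0.0142) at 19.1 ± 2.87 CPM in *Fzd3* mutants and 24.9 ± 1.08 CPM in *Celsr3* mutants (s.d., n = 3), and did not pass without *Celsr3* mutant library 2 (adjusted P = 0.0526) or with the block (0.1004, range 0.00661 to 0.1004). Against controls *Pdk2* (-0.28, adjusted P = 0.0580; -0.17 without *Fzd3* mutant library 3) passed without *Fzd3* mutant library 1 (adjusted P = 0.0177) and with read weights (0.0497, range 0.0177 to 0.189). The phosphoglucomutase *Pgm2* differed by 0.44 (adjusted P = 0.0434), with 17.0 ± 3.42 and 12.3 ± 1.44 CPM (s.d., n = 3), and lost its call in 8 of 19 fits, among them those without *Fzd3* mutant library 1 (adjusted P = 0.167) or 2 (0.132), without *Celsr3* mutant library 1 (0.0945) or 4 (0.138) and without control library 1 (0.0526) or 2 (0.0516), within 0.00530 to 0.167. Against controls *Pgm2* (0.28, adjusted P = 0.170; 0.16 without *Fzd3* mutant library 1 and 0.18 without control library 3) passed without *Fzd3* mutant library 3 (0.45, adjusted P = 0.0213, range 0.0213 to 0.489). *Slc2a1*, the glucose transporter of brain vessels, did not pass (0.11, adjusted P = 0.489). It was at 47.3, 48.2 and 46.9 CPM for controls and 58.9, 54.6 and 41.7 CPM for *Fzd3* mutants. Libraries 1 and 2 of the *Fzd3* mutants thus lay above all controls and library 3 below them.

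Other genes of the hypoxia pathway gave a list of 50, of which 43 were in the table. Of the 43, 11 passed between *Fzd3* mutants and controls (25.6%; 7 higher, 4 lower; median log2 difference 0.066), beside 29.76% of all genes, and 9 between the mutants (20.9%; 6 higher, 3 lower; median -0.0034), beside 29.63%. For *Ppfia4*, the control values were 18.0, 15.5 and 19.2 CPM, the *Fzd3* mutant values 29.7, 28.2 and 27.3 CPM and the *Celsr3* mutant values 23.2, 20.9 and 17.3 CPM. *Ppfia4*, a liprin gene, was highest in the 3 *Fzd3* mutants, by 0.68 (adjusted P = 0.000913). *Bhlhe40* measured 7.55, 7.04 and 7.98 CPM in control samples, 11.1, 11.3 and 10.6 CPM in *Fzd3* mutant samples and 7.82, 6.98 and 7.50 CPM in *Celsr3* mutant samples. The transcriptional repressor *Bhlhe40* was higher in 3 of 3 *Fzd3* mutants, by 0.52 (adjusted P = 0.00128). Control samples held *Rcor2* at 179.8, 189 and 168 CPM, compared with 131, 136 and 137 CPM for *Fzd3* mutants and 169, 186 and 185 CPM for *Celsr3* mutants. *Rcor2*, a corepressor gene, was lower in 3 of 3 *Fzd3* mutants and fell by 0.40 on the log2 scale (adjusted P = 0.000327). For *Angptl4*, the control values were 1.503, 1.43 and 1.68 CPM, the *Fzd3* mutant values 3.34, 3.30 and 2.84 CPM and the *Celsr3* mutant values 1.92, 2.20 and 3.66 CPM. *Angptl4*, a secreted inhibitor of lipoprotein lipase, was above the controls in 3 of 3 *Fzd3* mutants (0.85, adjusted P = 0.00650) and highest in *Celsr3* mutant library 4, and it passed between the mutants only when that library was left out (from 0.28, adjusted P = 0.285, to 0.52, adjusted P = 0.0315, range 0.0315 to 0.669; 0.13 without *Celsr3* mutant library 1). The transferrin receptor *Tfrc* rose by 0.31 (adjusted P = 0.0125), from 66.3 ± 6.10 to 82.4 ± 8.85 CPM (s.d., n = 3), a call lost without control library 2 (adjusted P = 0.0516, range 0.00737 to 0.0516). *Wsb1*, an adaptor of a ubiquitin ligase, was at 255 ± 16.9 CPM in controls, 308 ± 15.1 CPM in *Fzd3* mutants and 244 ± 19.3 CPM in *Celsr3* mutants (s.d., n = 3), with 0.34 between the mutants (adjusted P = 0.00353). The placental growth factor *Pgf* rose by 0.53 (adjusted P = 0.0434) in 3 of 3 *Fzd3* mutants, from 1.16 ± 0.224 to 1.92 ± 0.519 CPM (s.d., n = 3), and lost its call in 10 of 18 fits. Those without *Fzd3* mutant library 1 or 2 gave *Pgf* an adjusted P of 0.172 and 0.0860, those without *Celsr3* mutant library 1, 2 or 4 0.0564, 0.0588 and 0.0537, and those without control library 1, 2 or 3 0.0749, 0.0550 and 0.127, within 0.0216 to 0.172. Against *Celsr3* mutants *Pgf* (0.45, adjusted P = 0.0802; 0.29 without *Fzd3* mutant library 1) passed without *Fzd3* mutant library 3 (adjusted P = 0.0370, range 0.0370 to 0.288). In *Celsr3* mutants against controls, 0 of the 31 and 0 of the 43 genes passed in limma, and the fit with read weights called 0 and 0. An unadjusted P under 0.05 was found for 0 and 3 of them, beside 800 of all 14670 genes.

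Marker genes of the cell types of the cortex were summed in each library, because several of these types use glycolysis and hypoxia genes to a different extent. The counts of markers higher or lower in *Fzd3* mutants stand beside 14.99% and 14.77% of all genes. Radial glia markers (9 of 10 in the table, *Glul* absent) summed to 1388, 1443 and 1399 CPM in control samples, 1066, 1128 and 1009 CPM in *Fzd3* mutants and 1261, 1297 and 1378 CPM in *Celsr3* mutants, and 0 of the 9 were higher and 7 lower in *Fzd3* mutants. Averaged over all libraries, their most abundant gene was *Fabp7* (343 to 506 CPM). By genotype, *Vim* had the higher mean in controls (483 CPM beside 463 CPM for *Fabp7*) and in *Celsr3* mutants (460 beside 420 CPM). In *Fzd3* mutants *Fabp7* was higher (412 CPM beside 313 CPM for *Vim*). Intermediate progenitor markers (6 of 6) summed to 437, 470.1 and 393 CPM in control samples, 252, 272 and 309 CPM in *Fzd3* mutants and 432, 486 and 494 CPM in *Celsr3* mutants, with 6 of 6 lower, and *Eomes* (97.0 to 201 CPM) was the most abundant. All 3 *Fzd3* mutants were below the other 6 samples for both progenitor sums. Projection neuron markers (9 of 10, *Tubb3* absent) summed to 6862, 6855 and 6627 CPM in control samples, 7134, 6911 and 7154 CPM in *Fzd3* mutants and 6986, 6990.1 and 6661 CPM in *Celsr3* mutants, with 3 higher and 4 lower, led by *Dcx* (1829.6 to 2028 CPM). Interneuron markers (8 of 8) summed to 254, 255 and 286 CPM in control samples, 358, 333 and 276 CPM in *Fzd3* mutants and 266, 222 and 207 CPM in *Celsr3* mutants, with 1 higher and 0 lower, led by *Dlx1* (67.8 to 98.1 CPM). The higher mean of the interneuron sum was mostly that of *Npy*, at 16.0, 18.8 and 17.0 CPM for controls and 75.2, 72.2 and 57.3 CPM for *Fzd3* mutants. Without *Npy* the interneuron sum was 238, 236 and 269 CPM for controls and 282, 261 and 219 CPM for *Fzd3* mutants.

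Endothelial markers (10 of 10) summed to 141, 140.0 and 148 CPM in control samples, 209, 207 and 184 CPM in *Fzd3* mutants and 147, 132 and 186 CPM in *Celsr3* mutants, with 4 of 10 higher and 0 lower in *Fzd3* mutants, led by *Kdr* (28.4 to 51.1 CPM). Here the *Fzd3* mutants were above all controls, and *Celsr3* mutant library 4 stood with them. Pericyte markers (6 of 6) summed to 104, 111 and 109.5 CPM in control samples, 124, 122 and 111 CPM in *Fzd3* mutants and 114, 108 and 138 CPM in *Celsr3* mutants, with 1 higher and 0 lower, led by *Rgs5* (30.4 to 41.7 CPM). Microglia markers (9 of 10, *Tmem119* absent) summed to 37.8, 44.9 and 42.5 CPM in control samples, 68.1, 63.6 and 47.7 CPM in *Fzd3* mutants and 42.6, 46.0 and 54.7 CPM in *Celsr3* mutants, with 4 higher and 0 lower, led by *Csf1r* (11.6 to 23.1 CPM). Meningeal fibroblast markers (6 of 8, *Aldh1a2* and *Lum* absent) summed to 27.5, 28.0 and 29.5 CPM in control samples, 53.6, 48.9 and 31.8 CPM in *Fzd3* mutants and 34.5, 28.3 and 195 CPM in *Celsr3* mutants, with 1 higher and 0 lower, led on average over all libraries by *Pdgfra* (11.8 to 32.5 CPM). In *Celsr3* mutant library 4, however, *Col3a1* (87.6 CPM), *Col1a2* (49.4 CPM) and *Col1a1* (21.5 CPM) exceeded *Pdgfra* (19.8 CPM). The *Celsr3* mutant mean was also higher for *Col3a1* (33.1 CPM) than for *Pdgfra* (17.4 CPM). Without *Pdgfra* the meningeal sums of *Fzd3* mutants and controls overlapped, with *Fzd3* mutant library 3 (14.7 CPM) below control library 2 (16.2 CPM). Erythroid markers (8 of 10, *Hbb-b1* and *Hbb-b2* absent) summed to 1767, 1919.6 and 2041 CPM in control samples, 2288, 2445 and 1570.2 CPM in *Fzd3* mutants and 2418, 1585 and 2539 CPM in *Celsr3* mutants, with 0 higher and 1 lower, led by *Hba-a1* (495 to 782 CPM). *Celsr3* mutant library 4 thus carried far more meningeal marker RNA than any other sample, and it was also the sample highest for *Epas1* and *Angptl4*. Immediate early genes, which respond to tissue handling (6 of 10, *Atf3*, *Egr2*, *Fos* and *Fosb* absent), summed to 103, 109 and 96.3 CPM in control samples, 105, 101 and 90.7 CPM in *Fzd3* mutants and 119, 130.3 and 129 CPM in *Celsr3* mutants, with 1 higher and 2 lower, led by *Jun* (39.7 to 66.5 CPM). *Btg2*, lower in *Fzd3* mutants, is also among the intermediate progenitor markers. Without it the immediate early sum was 71.7, 76.3 and 68.9 CPM for controls, 87.7, 83.8 and 71.7 CPM for *Fzd3* mutants and 88.8, 99.7 and 94.1 CPM for *Celsr3* mutants. The gene of this list that was higher in *Fzd3* mutants was *Egr1*, at 1.54, 1.41 and 1.505 CPM for controls and 4.76, 4.95 and 2.596 CPM for *Fzd3* mutants. Choroid plexus markers were not in the table (0 of 6), and 0 of the listed markers was at 0 in any library. Between *Celsr3* mutants and controls, 0 of the 76 marker genes passed in limma, and read weights called 0. An unadjusted P under 0.05 was found for 17 of the 76, a larger share than among all genes (800 of 14670). The part of these cell types in the glycolysis and hypoxia values was not tested.

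**Figure D4:**
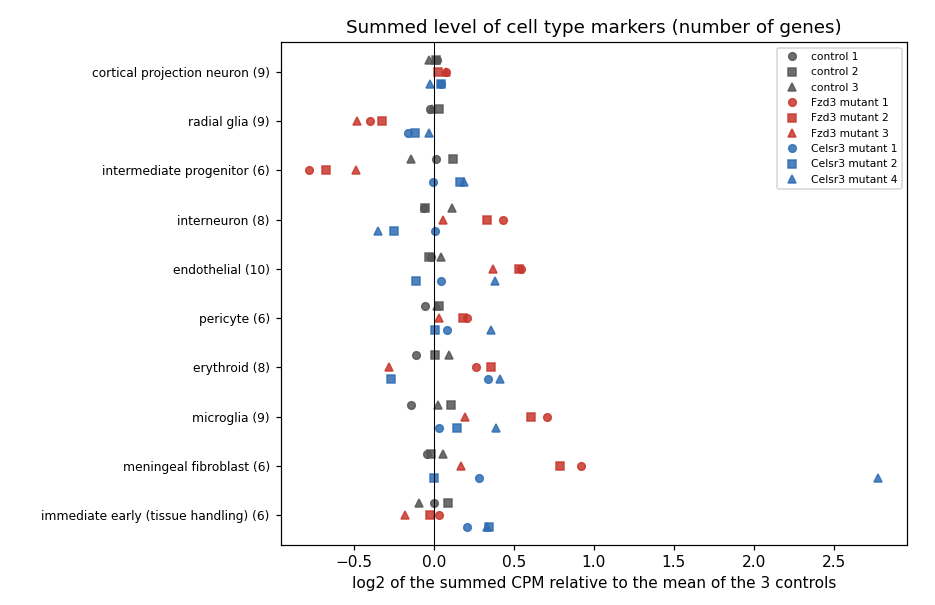
Points give, for each of the 9 libraries, the log2 of the summed CPM of a marker list relative to the mean of the 3 controls (horizontal axis), with 1 line per cell type and the number of genes summed in brackets. *Fzd3* mutants (red) lie left of all other samples for both progenitor lists and right of all controls for endothelial and microglia lists, and *Celsr3* mutant library 4 (blue triangle) holds 195 CPM of meningeal markers.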

How the data were processed

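RNA of mouse cortex at E16.5 was sequenced in 9 libraries, 3 per genotype, grouped by their labels (the labels name Trizol for RNA extraction, the methods RNeasy). The authors deposited CPM values for 14670 genes, already without genes of low expression (lowest mean 0.540 CPM), and 0 columns were left unused. The submitters' processing notes name FastQC, TopHat, TopHat2, Bowtie, Cufflinks 2.1.1 and edgeR 2.12 with the builds GRCm38 and GRCh37; strand use is not stated. Column values were whole multiples of 1 step (tolerance 0.01 step), taken as 1 read, although too few low values are listed to check this, which gives 39857305 to 69600589 reads on listed genes per library and a level of 3 reads of 0.0427 to 0.0752 CPM, for counting error only.

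The test was run with limma 3.58.1 in R 4.3.3 (eBayes with a trend, two-sided) on log2(CPM + 0.5), keeping genes whose mean reached 0.5 CPM, in 1 fit of all 9 libraries, with Benjamini-Hochberg adjustment over all genes and a threshold of 0.05; the fit was tested on simulated data. Isozyme shares were compared by exact permutation tests. Tables, tests and plots used Python 3.11.15, numpy 2.4.6, pandas 2.3.3, scipy 1.17.1 and matplotlib 3.10.9. Symbols were matched to GENCODE M21 of GRCm38 (37 of 38 genes; exon lengths are the union of annotated exons), and promoters to RefSeq GRCm38.p6.

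The genes and lists were chosen with earlier results of these data known. Named were all 38 genes, other listed pathway genes past the threshold with an absolute log2 difference of at least 0.3 (except for an item that is not reported here), processed copies of the 38 and the targeted genes; *Pitrm1*, *Lrp2bp* and *Gm10197*, which are among the genes that overlap exons of 12 of the 38, the markers *Npy*, *Btg2* and *Egr1*, *Slc2a1*, *Mpc1* and *Epo* were added with their values already known. Alternatives were another pseudocount (0.1 or 2), filter (none or 5 CPM), scaling, set of libraries, a replicate block, no variance trend, each library left out and, chosen after seeing the data, read weights.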

Additional observations from a re-analysis of the deposited data

How the results depend on the processing

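Over 19 alternative fits (9 without 1 library each, 10 others), 278 counts and medians stayed within 1.5 times or 1 s.d. of the reported value and 7 did not. With the replicate block, 29 genes passed between *Celsr3* mutants and controls (45 without it), 2101 between the mutants (4346) and 3629 between *Fzd3* mutants and controls (4366), and 5 of 23 glycolysis genes between the mutants (8). Library numbers did not pair the samples: deviations of same-numbered libraries correlated at -0.199 to 0.192, and *Celsr3* mutant library 4 has no partner. Leaving out 1 library moved the median log2 difference of glycolysis genes between *Celsr3* mutants and controls over -0.0232 to 0.0071, that of hypoxia genes over 0.0315 to 0.0921, and that of hypoxia genes between the mutants over 0.0982 to 0.215; the cause was not tested. The genes that passed between *Fzd3* mutants and controls numbered 2960 to 4314 with 1 library left out, with 7 to 13 glycolysis and 7 to 10 hypoxia genes. Of the values for named genes and shares, 3397 kept their side of the threshold or, for shares, stayed within 1 s.d. of the reported value. Of the gene values, 92 lost the threshold and 33 passed it, and 0 called genes turned sign. No scaling moved the median of all genes by more than 0.0154. A count test was not run, because too few low values are listed to check that steps are single reads; read weights gave 4207, 47 and 4359 genes. At a minimum of 5 CPM, 4 of the 38 genes drop out. With 3 libraries per genotype, bulk tissue and no protein or metabolite values, small differences and their cell of origin cannot be resolved.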

Other observations

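The erythropoietin gene *Epo*, a classical hypoxia target with little expression in most tissues outside kidney and liver, was listed at 302, 327 and 304 CPM in control samples, 320.3, 298 and 305 CPM in *Fzd3* mutants and 319.7, 307 and 308 CPM in *Celsr3* mutants. Its annotated exons share 104 bases with *Gnb2* on the same strand, so its value may include reads of another gene. It did not pass in limma between *Fzd3* mutants and controls (log2 difference -0.015, adjusted P = 0.829), and it was singled out after its values were seen. Over the 19 alternative fits its difference ran from -0.044 to 0.022, with the opposite sign in 3.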
